A study of Mus musculus with 15 samples.

Results

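The nuclear-encoded subunits of the mitochondrial respiratory chain were followed through 15 mouse liver RNA libraries. They were found by gene symbol alone: names starting with Nduf and a subunit letter and number, Cox4 to Cox8, Uqcr or Atp5, the 4 genes Sdha to Sdhd, and Cyc1 and Cycs, without pseudogenes. This gave 88 genes of the 17527 in the table. By complex they were 39 genes of complex I, 4 of complex II, 9 of complex III, 18 of complex IV, 17 of ATP synthase and the 1 gene for cytochrome c, Cycs. Ndufa4 and Ndufa4l2 carry complex I names but were counted with complex IV, where the Ndufa4 protein resides. The complex I count includes 3 paralogs of other members, Ndufb4b, Ndufb4c and Ndufs6b. The acyl carrier protein Ndufab1 is not caught by the rule.

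The libraries belonged to 3 groups of 5. BBBPH mice and model mice both had a nonalcoholic steatohepatitis induced by 20 weeks of a high-fat diet (60% of energy as fat, 20% as protein, 20% as carbohydrate, 0.2% cholesterol) with 42 g/L of sugar in the drinking water, 55% sucrose and 45% fructose. From week 12 on, the BBBPH mice received 150 mg/kg of biotransformed bear bile powder by mouth every day, and the model mice received saline. The labels give 14 dosed mice and 5 BBBPH libraries. The third group was the control; its diet, and the strain, sex and age of all mice, are not given in the sources used here. The labels do not say whether each library came from its own mouse, so p-values measure the spread between these libraries. Expression is in FPKM, a fragment count scaled by transcript length and by library depth, and rested on 35395712 to 39624160 fragments per library.

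Complex I passes electrons from NADH, and complex II those from succinate, to ubiquinone in the inner mitochondrial membrane. Complex III hands them to cytochrome c, complex IV reduces oxygen with them, and ATP synthase uses the proton gradient that complexes I, III and IV build. Most subunits are encoded in the nucleus and imported, while a small set is encoded in mitochondrial DNA. The 13 genes of that small set were looked for by their mt- symbols. Of these, 0 were found among the deposited genes, so their transcripts could not be analysed. Hepatocytes are rich in mitochondria, and the chain reoxidises the NADH and FADH2 made by fatty acid oxidation and by the tricarboxylic acid cycle.

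RefSeq promoter windows on GRCm38.p6, from 250 bases before to 50 bases after the start of a gene, were matched to 70 of the 88 subunit genes. The windows are given below for the called members of the set that have one, because these are the genes the comparisons turn on. Each reads 5′ to 3′ on the strand of the gene, and capitals mark matches on either strand to the motif letters named next.
Ndufs7 (chr10:80249199-80249498, plus strand): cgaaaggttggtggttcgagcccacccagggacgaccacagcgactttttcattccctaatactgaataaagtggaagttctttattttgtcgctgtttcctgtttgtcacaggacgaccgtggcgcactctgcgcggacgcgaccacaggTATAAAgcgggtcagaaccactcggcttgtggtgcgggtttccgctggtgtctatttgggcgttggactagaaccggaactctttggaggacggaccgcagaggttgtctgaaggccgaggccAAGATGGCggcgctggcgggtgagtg
Sdhd (chr9:50603800-50604099, minus strand): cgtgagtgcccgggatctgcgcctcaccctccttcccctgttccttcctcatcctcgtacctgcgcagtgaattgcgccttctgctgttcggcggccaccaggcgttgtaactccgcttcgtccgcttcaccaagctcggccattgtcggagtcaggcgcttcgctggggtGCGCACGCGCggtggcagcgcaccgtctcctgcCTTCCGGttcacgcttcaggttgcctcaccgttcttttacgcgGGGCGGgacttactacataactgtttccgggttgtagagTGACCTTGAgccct
Cox7a2 (chr9:79759804-79760103, minus strand): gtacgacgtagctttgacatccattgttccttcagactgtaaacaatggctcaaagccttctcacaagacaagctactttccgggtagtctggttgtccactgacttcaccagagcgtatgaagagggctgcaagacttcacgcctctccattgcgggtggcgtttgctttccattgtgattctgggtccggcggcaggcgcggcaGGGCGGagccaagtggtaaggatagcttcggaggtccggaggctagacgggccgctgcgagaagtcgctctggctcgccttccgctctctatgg
Ndufb3 (chr1:58586147-58586446, plus strand): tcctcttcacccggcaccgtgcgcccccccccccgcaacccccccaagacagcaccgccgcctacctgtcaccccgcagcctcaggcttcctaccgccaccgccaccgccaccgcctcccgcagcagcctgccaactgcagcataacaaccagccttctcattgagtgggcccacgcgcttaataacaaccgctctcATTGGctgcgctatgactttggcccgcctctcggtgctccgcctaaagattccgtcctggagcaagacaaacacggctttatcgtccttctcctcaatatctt
Ndufa9 (chr6:126849095-126849394, minus strand): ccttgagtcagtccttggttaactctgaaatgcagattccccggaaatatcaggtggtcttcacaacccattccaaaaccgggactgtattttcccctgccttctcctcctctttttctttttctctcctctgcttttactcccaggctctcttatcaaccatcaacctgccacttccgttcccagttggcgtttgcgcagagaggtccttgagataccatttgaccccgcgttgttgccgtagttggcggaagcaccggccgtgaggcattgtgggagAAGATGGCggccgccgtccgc
The letters searched were GCGCA and GCGC with any 1 base between them for NRF1, CCGGAAG for ETS factors such as GABPA, AAGATGGC for YY1, TCAAGGTCA for the estrogen-related receptors, GGGCGG for SP1, CCAAT for the CCAAT box and TATAAA for the TATA box, on both strands. Among the windows shown, Ndufs7 held the YY1 letters at position 25 after its RefSeq start and TATAAA at position -99. This whole window lies inside the gene as GENCODE M21 annotates it, so that position is not upstream of the GENCODE start. Ndufa9 held the YY1 letters at position 30. Sdhd held letters of NRF1 at position -79, of an ETS site at -46, of SP1 at -3 and of an estrogen-related receptor site at 37. Cox7a2 held only the SP1 letters, at -44, and Ndufb3 only a CCAAT box, at -53. A match describes the letters of these windows and is no evidence of binding.

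Across the 70 windows, NRF1 letters were in 24.3%, against 12.3% of the windows of the genes tested that had one and 4.60% of all 32851 windows. ETS letters stood in 24.3% of the subunit windows, against 21.7% of those of tested genes and 8.86% of all. YY1 letters stood in 14.3%, against 5.81% and 2.75%. Estrogen-related receptor letters were found in 2 subunit windows, those of Sdhd and Atp5g3 (2.86%, against 0.322% of tested genes and 0.423% of all). GGGCGG was in 40.0% of subunit windows, against 68.9% of those of tested genes and 35.7% of all. The CCAAT box was in 42.9%, against 42.8% and 37.4%, and TATAAA in 7 of the 70, against 9.05% of those of tested genes and 13.6% of all.

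The subunits were abundant. Their FPKM added up to 2.55% to 3.33% of all FPKM in a library, and 80 of the 88 genes averaged over 10 FPKM. None of the 13 mitochondrially encoded subunit genes was found, by its mt- symbol, among the genes behind that total. Within complex IV the highest mean levels over the 15 libraries were those of Cox4i1 (712 FPKM), Ndufa4 (557 FPKM) and Cox6b1 (550 FPKM). In ATP synthase the catalytic beta subunit gene Atp5b (694 FPKM) and its partner alpha subunit gene Atp5a1 (473 FPKM) were highest. Complex III was led by Uqcrh, the hinge protein (407 FPKM), and complex I by the accessory subunit gene Ndufb9 (343 FPKM). Cyc1 (99.9 FPKM) was the lowest of the 9 complex III genes, and Cycs averaged 26.1 FPKM. The filter at a mean of 1 FPKM left 83 subunits for testing. The other 5, Cox4i2, Cox6a2, Cox6b2, Cox8b and Ndufb4c, averaged 0.125 to 0.821 FPKM. Over the 15 libraries the coefficient of variation of the 83 had a median of 10.6%, with a range of 5.51% (Cox6a1) to 48.8% (Cox7a1). The median over all 9575 genes tested was 16.4%, but these sets were not matched for level. Reads of the near-identical copies Ndufb4 and Ndufb4b, and Ndufs6 and Ndufs6b, may have been split between them in counting, so the levels of these genes are uncertain.

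Summed over its genes, no complex separated the groups. The sum over all 88 genes was 15043, 16382, 14241, 16376 and 15877 FPKM in BBBPH livers, 15478, 12603, 15528, 15296 and 15666 FPKM in model livers, and 15933, 16734, 14461, 16364 and 12795 FPKM in control livers. The means were 15584 ± 928, 14914 ± 1299 and 15258 ± 1625 FPKM (SD, n = 5 each), and the ranges of all 3 groups overlapped. Complex I summed to 4108 ± 265, 3942 ± 331 and 3884 ± 411 FPKM in BBBPH, model and control livers. ATP synthase summed to 4708 ± 323, 4406 ± 379 and 4583 ± 515 FPKM, and complex IV to 4021 ± 186, 4004 ± 343 and 4078 ± 418 FPKM. Complex III summed to 1977 ± 114, 1850 ± 186 and 1967 ± 221 FPKM, and complex II to 743 ± 71.6, 688 ± 67.3 and 720 ± 74.8 FPKM. In each of these the groups overlapped in all 3 pairs. The proportions between complexes hardly moved: complex I made up 25.3% to 26.8% of the sum in any library, complex II 4.39% to 4.95%, complex III 12.0% to 13.2%, complex IV 25.3% to 27.4% and ATP synthase 29.3% to 30.9%.

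**Figure D1:**
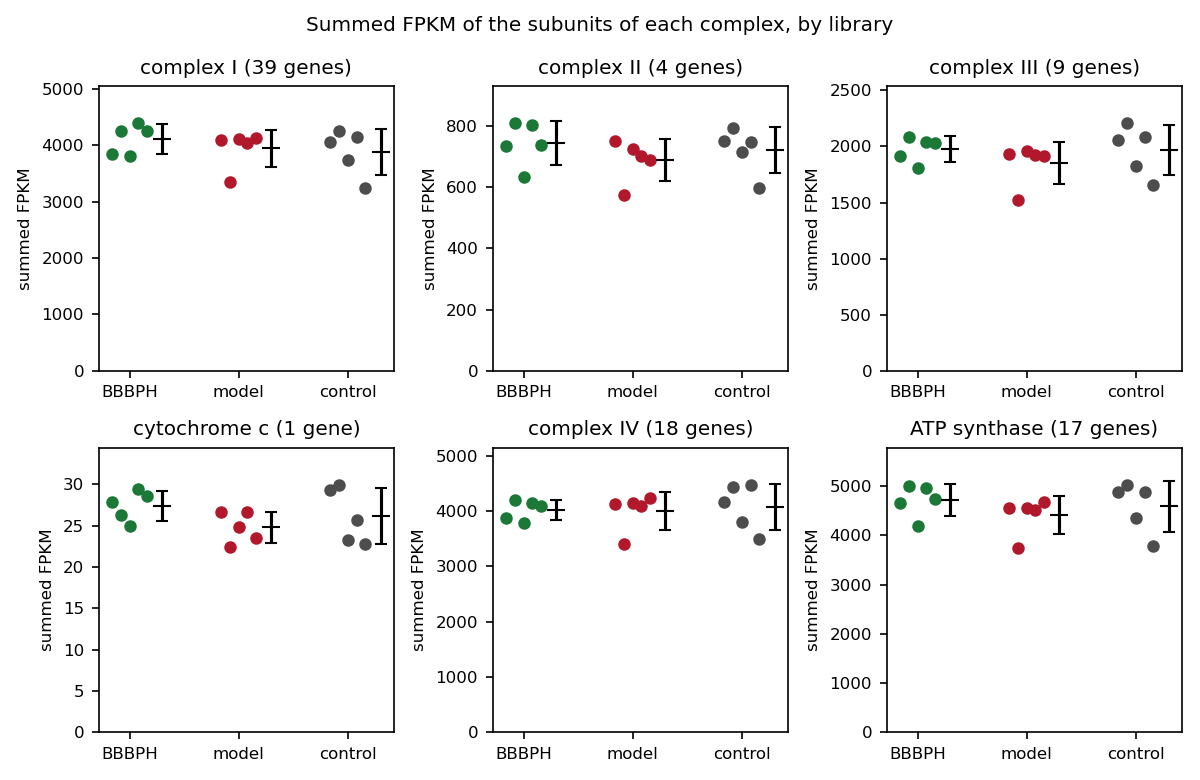
Summed FPKM of the subunit genes of each complex (vertical axis, from 0), with 1 point per library and the mean ± SD of each group of 5 as a bar beside the points. The groups overlap in every panel, and model library 1_4 lies lowest among the model points, at 3353 FPKM in complex I.

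Each group had a library that was the lowest of its group in most tested subunits. Model library 1_4 was the lowest model library in 76 of the 83 tested subunits, by a median of 17.4% under the mean of the other 4, while it was lowest in 31.1% of all genes tested and 2.42% under the others there. Control library 3_4 was lowest of its group in 77 of 83, by a median of 19.5%, against 35.0% and 3.49% over all genes. BBBPH library 3_1 was lowest of its group in 65 of 83, by a median of 12.0%, against 16.8% of all genes, where it lay 1.22% above the others. All complexes took part: ATP synthase genes were 17.4%, 21.6% and 13.2% lower in these 3 libraries, and complex I genes 17.1%, 20.1% and 12.1% lower. The 78 mitochondrial ribosomal protein genes were 9.83%, 14.2% and 9.06% lower. In the BBBPH group these genes did not single out library 3_1. BBBPH 2_1 was 10.6% lower in them, and lowest of its group in 35 of the 78, against 33 for BBBPH 3_1. In model 1_4, control 3_4 and BBBPH 3_1, assembly factor genes were 8.44%, 18.3% and 9.89% lower. Tricarboxylic acid cycle and pyruvate dehydrogenase genes were 4.40%, 15.9% and 13.1% lower, and coenzyme Q genes 8.29%, 10.8% and 12.3%. Carrier and uncoupling genes were 6.44%, 18.8% and 9.26% lower, and import genes 9.03%, 15.5% and 3.39%. Mitochondrial biogenesis regulators were 12.6% lower in model 1_4, but 1.53% above the others in control 3_4 and 7.89% above them in BBBPH 3_1.

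In all 3 libraries the sum of 7 hepatocyte markers, without Alb, was the lowest of its group, while other measures differed between them. In model 1_4 the summed level of 8 hepatocyte markers was 36220 FPKM, against 48777 to 62040 FPKM in the other model libraries, and the acute-phase gene Saa2 stood at 14965 FPKM, against 61.6 to 194 FPKM. Without Alb, which supplied most of that sum, model 1_4 was lowest as well, at 15076 FPKM. In control 3_4 the hepatocyte sum was 74486 FPKM, the highest of the controls (others 66412 to 70997 FPKM). Without Alb the sum of the other 7 markers was the lowest of the controls, at 23563 FPKM, just under the others (23830.5 to 24424 FPKM). The depth of control 3_4 was the lowest of the 15 libraries. In BBBPH 3_1 the hepatocyte sum was 62000 FPKM (other BBBPH libraries 62631 to 70404 FPKM). Without Alb it was 25110.5 FPKM (others 25453 to 29216 FPKM). The sum of 8 leukocyte markers in BBBPH 3_1 was 346 FPKM, against 173 to 256 FPKM in the other BBBPH libraries. Lyz2 supplied 244 FPKM of it, and without Lyz2 the sum was 103 FPKM (others 66.0 to 90.6 FPKM). None of the 8 hepatocyte or 8 leukocyte markers was listed at 0 in any library. Their part in the low subunit levels was not tested. In whole liver, fewer cells of a type and less RNA per cell cannot be told apart.

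Markers of the cell types a liver piece can hold also varied. The hepatocyte sum was 62000 to 70404 FPKM in BBBPH, 36220 to 62040 FPKM in model and 66412 to 74486 FPKM in control livers. Without Alb it was 25110.5 to 29216, 15076 to 24612 and 23563 to 24424 FPKM, so the model and control ranges overlapped. Stellate cell and fibroblast markers (8) summed to 120 to 135, 135 to 172 and 101 to 127 FPKM. Without Dcn, the highest of them, they summed to 12.7 to 18.9, 19.4 to 30.7 and 11.1 to 22.4 FPKM. The 8 adipocyte markers summed to 0.697 to 2.10 FPKM in BBBPH, 6.68 to 75.6 FPKM in model and 1.09 to 9.82 FPKM in control livers, with Cfd, encoding adipsin, the highest of them in every model library, while Adipoq, encoding adiponectin, was at most 0.400 FPKM in model livers. Endothelial markers (6) summed to 124 to 134, 84.3 to 130 and 102 to 119 FPKM. Without Clec4g, the highest of them, they summed to 43.6 to 49.1, 39.7 to 47.4 and 36.5 to 41.9 FPKM. Red cell markers (5) summed to 357 to 716, 331 to 432 and 314 to 802 FPKM. In BBBPH against model livers 2 of the red cell markers rose and 1, Alas2, fell (-0.60, limma adjusted p = 0.00262). There 4 of 8 stellate cell and fibroblast markers and 2 of 2 tested adipocyte markers fell. Of 8 hepatocyte markers 1 rose and 2 fell, and 1 of 6 endothelial markers rose. Over all genes tested 14.2% rose and 12.2% fell. In model against control livers 6 of 8 stellate cell and fibroblast markers rose and 4 of 8 hepatocyte markers fell. Neither list had a call the other way. Over all genes 29.9% rose and 8.64% fell there. Bile duct markers (5) summed to 21.9 to 33.7, 24.9 to 255 and 23.5 to 26.6 FPKM. The bile duct value of 255 FPKM was that of model 1_4, where Spp1 alone stood at 252 FPKM; without Spp1 the other 4 markers summed to 2.42 to 5.78 FPKM in BBBPH, 3.08 to 4.22 FPKM in model and 2.47 to 3.77 FPKM in control livers. A sum of 13 pancreatic acinar markers was 4865 FPKM in BBBPH library 2_2 and at most 27.1 FPKM in the other libraries. The part of these differences in the comparisons of subunits was not tested.

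**Figure D2:**
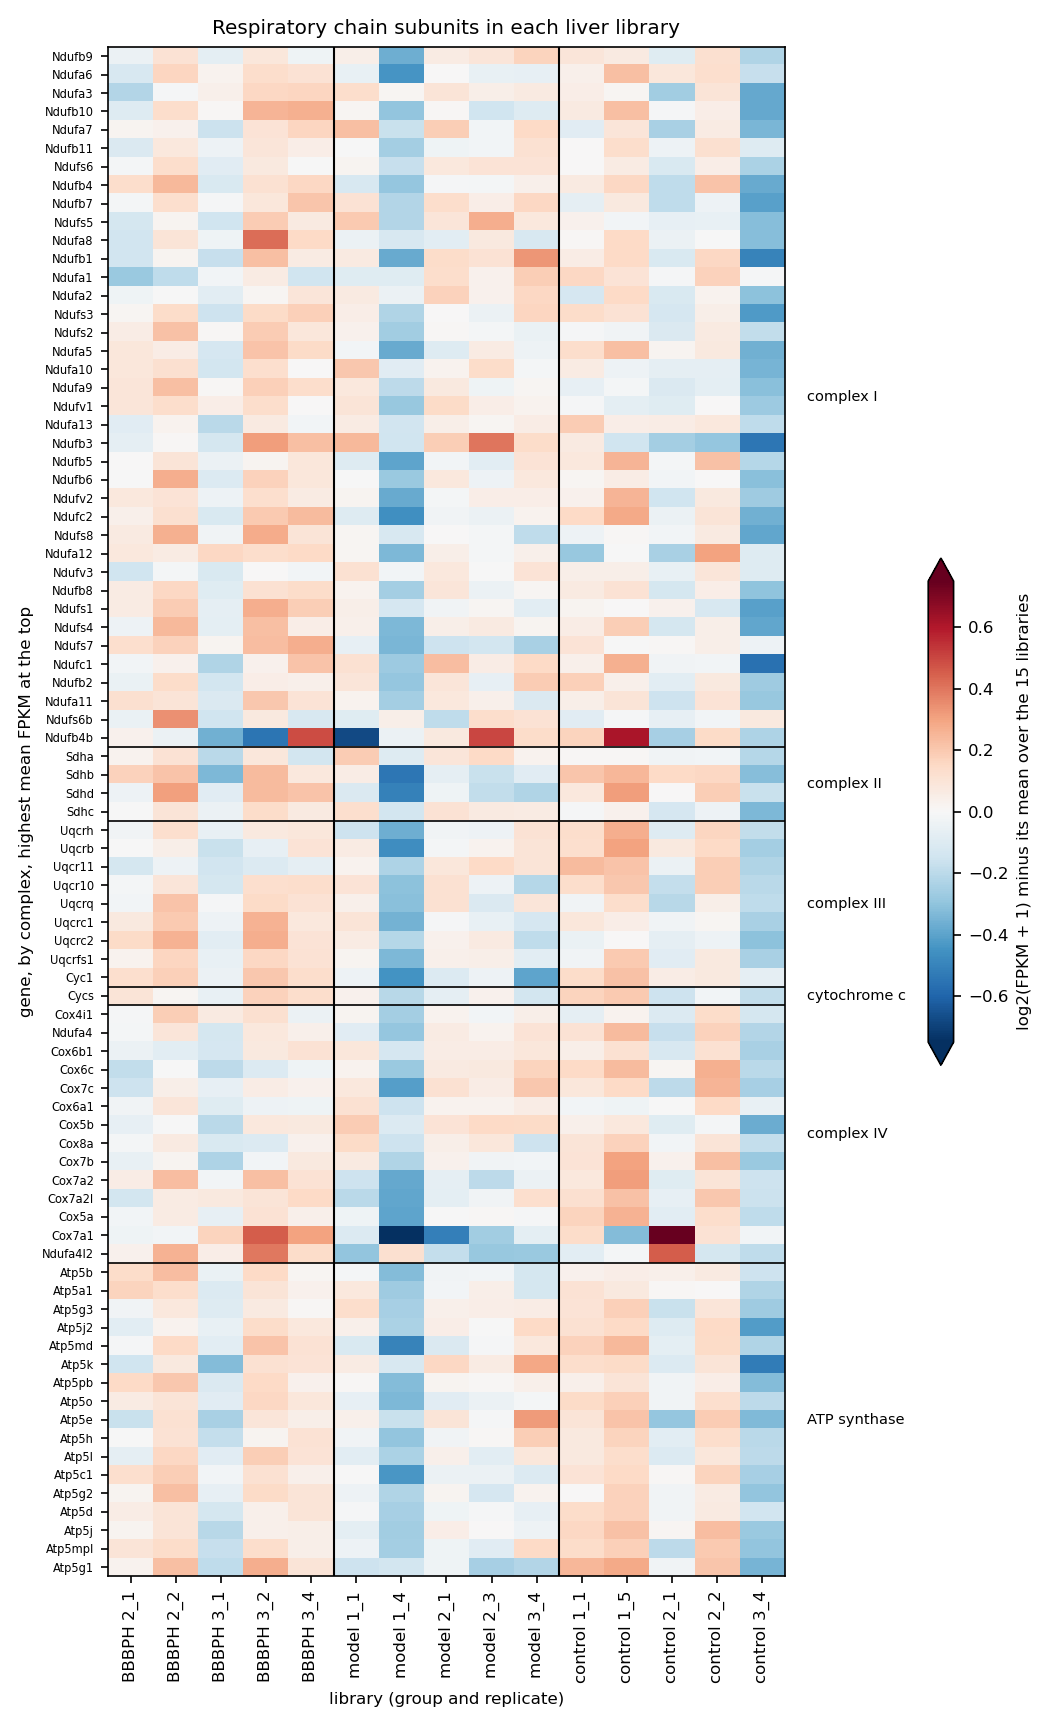
Log2(FPKM + 1) of the 83 tested subunits (rows, by complex) in the 15 libraries (columns, BBBPH, then model, then control), as the difference from the mean of each gene over all libraries. The blue columns are model 1_4 and control 3_4, which were lowest of their groups in 76 and 77 of the 83 genes; BBBPH 3_1 is a paler one, and Cox7a1 in control 2_1 is the strongest red.

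Fold changes were tested with limma on log2(FPKM + 1) over all 9575 genes, at a Benjamini-Hochberg adjusted p under 0.05. The 3 comparisons share their groups in pairs and are therefore not independent. The median fold change of all genes on the log2 scale was 0.02 for BBBPH against model, but 0.13 for BBBPH against control and 0.12 for model against control. Rescaling by median ratios between genes moved the last 2 to -0.01, so the subunits are given relative to these medians as well.

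In bear bile-treated livers compared with model livers, 5 subunits rose and none fell: Ndufs7 of complex I, Sdhd of complex II, Cyc1 of complex III, and Cox7a2 and Ndufa4l2 of complex IV. These 5 are 6.02% of the 83 tested, against 26.5% of all genes tested (14.2% higher and 12.2% lower). The count of 0 for falls by limma held at an unadjusted p under 0.05, where 0 subunits were lower, and voom on recovered counts also called 0. The median log2 fold change of the 83 was 0.11, or 0.09 above that of all genes. With model 1_4 left out, that difference was 0.03 and 3 subunits were called (Ndufs7, Cyc1 and Ndufa4l2). With model 1_4, BBBPH 2_2 and control 2_1 left out, it was 0.01, and Ndufs7, Cox7a1 and Ndufa4l2 were called. The count was also 3 without BBBPH 3_4, model 1_1 or model 3_4, and 2 without BBBPH 2_2, BBBPH 3_2 or model 2_3.

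Ndufs7 encodes the iron-sulfur core subunit that hands electrons to ubiquinone in complex I. It stood at 47.3, 48.8, 43.9, 50.8 and 52.3 FPKM in BBBPH livers, 41.3, 33.8, 38.6, 39.1 and 36.3 FPKM in model livers, and 46.4, 43.1, 43.4, 44.6 and 42.0 FPKM in control livers. Every BBBPH library and every control library lay above every model library. The log2 fold change was 0.36 ± 0.07 (SE) for BBBPH against model (limma adjusted p = 0.00107), and it passed the threshold under all 23 alternatives. For model against control it was -0.21 ± 0.07 (adjusted p = 0.0183), and the call was lost only when model 1_4, BBBPH 2_2 and control 2_1 were left out (adjusted p = 0.0784). BBBPH against control gave 0.14 ± 0.07, with an adjusted p of 0.112. The gene lies at chr10:80249121-80256794 on GRCm38, as GENCODE M21 annotates it. Its promoter window, placed by the RefSeq start, lies inside this span.

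Cyc1 encodes cytochrome c1, the haem subunit of complex III that passes electrons to cytochrome c. It was 108, 112, 96.0, 114 and 109 FPKM in BBBPH livers, 96.3, 72.2, 92.3, 96.6 and 75.1 FPKM in model livers, and 109, 115, 103, 104 and 94.6 FPKM in control livers. The BBBPH and model groups overlapped only between the lowest BBBPH library, 3_1, and 2 model libraries. Cyc1 had a log2 fold change of 0.32 ± 0.09 for BBBPH against model (limma adjusted p = 0.0158) and -0.29 ± 0.09 for model against control (adjusted p = 0.0203). The first call was lost only without model 1_4, BBBPH 2_2 and control 2_1 together (adjusted p = 0.0906). The second was lost in the same case (0.0750), without model 3_4 (0.0517) and without control 1_5 (0.0509). BBBPH against control gave 0.03, with a 95% interval of -0.16 to 0.23.

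Sdhd encodes the small membrane anchor of succinate dehydrogenase. It reached 167, 212, 161, 202 and 199 FPKM in BBBPH livers, 159, 120, 168, 150 and 146 FPKM in model livers, and 181, 213, 172, 194 and 152 FPKM in control livers. The groups overlapped in all pairs. The log2 fold change was 0.34 ± 0.11 for BBBPH against model (limma adjusted p = 0.0324) and -0.29 ± 0.11 for model against control (adjusted p = 0.0459). These calls were lost under 9 and 11 of 23 alternatives, and without model 1_4 the adjusted p was 0.0764 for the first and 0.110 for the second.

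The other 3 succinate dehydrogenase genes did not pass the threshold in any of the 3 comparisons. Sdhb, the iron-sulfur subunit gene, was 206, 212, 144, 215 and 192 FPKM in BBBPH livers, 190, 125, 174, 162 and 172 FPKM in model livers, and 211, 217, 203, 203 and 146 FPKM in control livers. Its 4 higher control libraries lay above all model libraries, and control 3_4 lay among them. Its log2 fold change was 0.23 ± 0.14 for BBBPH against model (limma adjusted p = 0.224) and -0.25 ± 0.14 for model against control (adjusted p = 0.159); without control 3_4 the value for model against control was -0.35 (adjusted p = 0.0417). Sdha, the flavoprotein gene, was 215, 228, 183, 224 and 192 FPKM in BBBPH livers, 242, 197, 225, 235 and 216 FPKM in model livers, and 213, 213, 207, 208 and 182 FPKM in control livers. Its lowest values in the groups were again those of BBBPH 3_1, model 1_4 and control 3_4. Sdhc, the other membrane anchor, was 146, 157, 142, 161 and 153 FPKM in BBBPH livers, 160, 133, 158, 153 and 153 FPKM in model livers, and 145, 150, 134, 143 and 116 FPKM in control livers. Sdhd and Sdhb thus had the same sign of difference in both comparisons with the model group, and Sdha and Sdhc the opposite sign in model against control (0.12 and 0.14 on the log2 scale); differences between these genes were not tested.

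**Figure D3:**
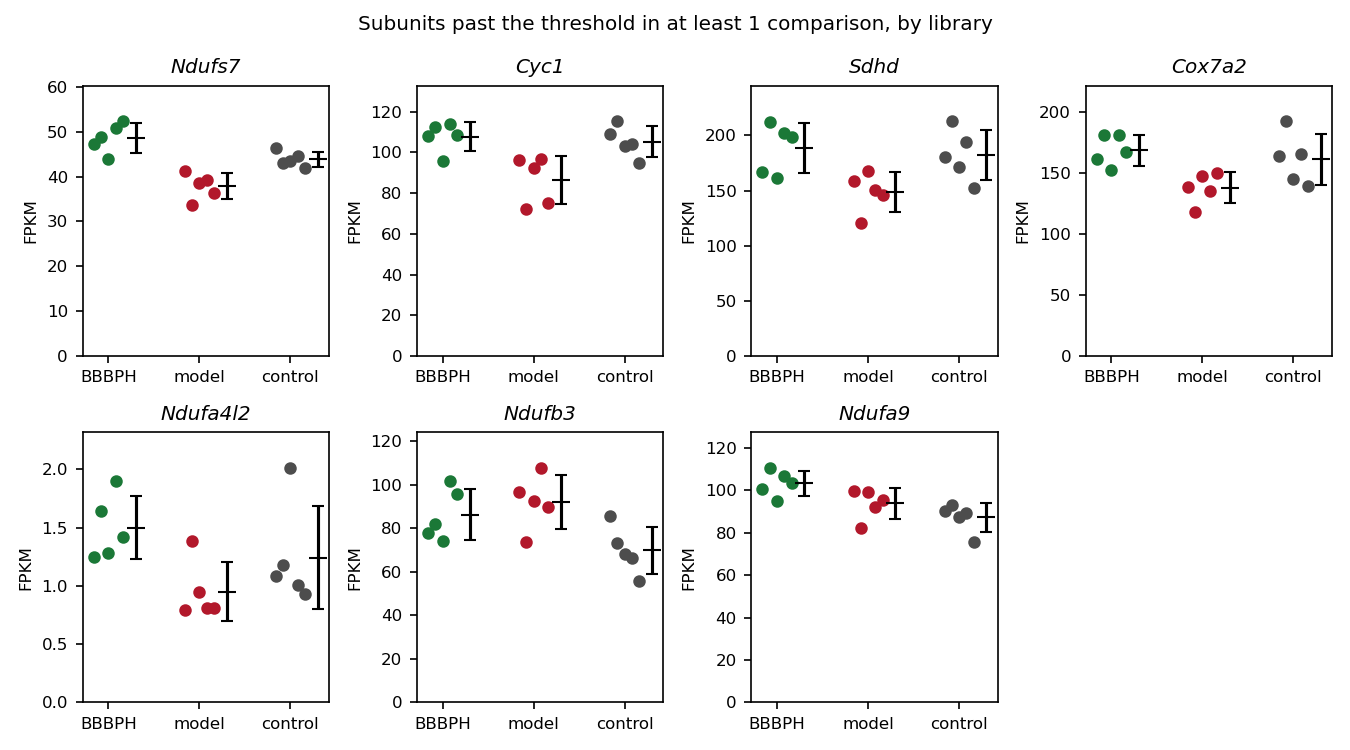
FPKM (vertical axis, from 0) of the 7 subunits that passed the threshold in at least 1 comparison, with 1 point per library and the mean ± SD of each group of 5 beside it. Model points lie below all BBBPH and control points for Ndufs7, and the groups overlap for Cyc1, Sdhd and Ndufb3.

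Cox7a2 is the widely expressed form of complex IV subunit 7a. It was 161, 182, 153, 181 and 167 FPKM in BBBPH livers, 139, 119, 148, 135 and 151 FPKM in model livers, and 164, 193, 145, 166 and 139 FPKM in control livers. All BBBPH libraries lay above all model libraries, 153 FPKM being the lowest in BBBPH and 151 FPKM the highest in model livers. For BBBPH against model the log2 fold change of Cox7a2 was 0.29 ± 0.09 (limma adjusted p = 0.0309), a call lost under 7 of 23 alternatives, among them leaving out model 1_4 (0.0723) or BBBPH 2_2 (0.0743). For model against control the value was -0.22 ± 0.09 with an adjusted p of 0.0745.

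Ndufa4l2 is a low-level paralog of the complex IV subunit gene Ndufa4, known in hypoxic cells as a target of HIF-1. It was listed at 1.25, 1.64, 1.28, 1.90 and 1.42 FPKM in BBBPH livers, 0.794, 1.39, 0.944, 0.808 and 0.813 FPKM in model livers, and 1.08, 1.18, 2.01, 1.01 and 0.932 FPKM in control livers. Model 1_4 lay among the BBBPH libraries and the other 4 model libraries below them. The log2 fold change of FPKM + 1 was 0.36 ± 0.12 for BBBPH against model (limma adjusted p = 0.0378), and the call was lost under 9 of the 22 alternatives that test this gene, with adjusted p up to 0.0961. The pseudocount shrinks a change at this level: with 0.1 in place of 1 the fold change was 0.62. Ndufa4 itself was 548, 591, 506, 586 and 569 FPKM in BBBPH livers, 522, 453, 578, 564 and 596 FPKM in model livers, and 597, 654, 493, 624 and 477 FPKM in control livers, and was not called in any comparison.

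Of the 78 other subunits tested in this comparison, 2 more had groups that did not overlap: Cox7a1 and the complex I subunit gene Ndufa12, for which the adjusted p was 0.0838 and 0.250. With Ndufs7 and Cox7a2 this made 4 subunits higher without overlap and 0 lower, or 4.82% of 83, against 17.0% of all genes (9.11% higher and 7.9% lower). The 95% interval of the fold change lay within 1.5-fold either way in 81 of the 83 subunits, against 79.5% of all genes tested. By complex, the median log2 fold change was 0.08 in complex I, 0.12 in complex II, 0.14 in complex III, 0.02 in complex IV and 0.11 in ATP synthase, where 15 of 17 genes were higher and none passed.

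In model livers compared with control livers, 1 subunit rose, Ndufb3 of complex I, and 3 fell, the same Ndufs7, Sdhd and Cyc1 that rose with bear bile powder against the model. The 4 are 4.82% of the 83, where 38.6% of all genes tested were called (29.9% higher and 8.64% lower). This pair of comparisons shares the 5 model libraries, so that opposite signs in them are not independent. The median log2 fold change of the subunits was -0.04, or -0.16 relative to all genes. Under median-ratio scaling 0 subunits were higher and 22 lower, and under quantile scaling 1 and 16, while the split over all genes was 1483 higher and 1809 lower, in place of 2865 and 827. Without control 3_4, 9 subunits were lower in place of 3, and the relative median was -0.20; without model 1_4 it was -0.11. The count of higher subunits was 3 without model 1_4, 2 without control 1_5 and 0 without model 2_3.

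Ndufb3 encodes an accessory subunit of the membrane arm of complex I. It was 77.8, 81.8, 74.4, 102 and 95.5 FPKM in BBBPH livers, 96.6, 73.5, 92.8, 108 and 89.6 FPKM in model livers, and 85.6, 73.4, 68.2, 66.4 and 55.8 FPKM in control livers. The model and control groups overlapped through 1 model library, 1_4, and 1 control library, 1_1. Ndufb3 had a log2 fold change of 0.40 ± 0.12 for model against control (limma adjusted p = 0.0184), lost under median-ratio scaling (0.24, adjusted p = 0.114) and without model 2_3 (adjusted p = 0.0525). BBBPH against control gave 0.30 ± 0.12 with an adjusted p of 0.0741.

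Only 1 subunit, Ndufs7, had model and control libraries that did not overlap, or 1.2% of 83, against 23.9% of all genes (18.8% higher and 5.07% lower). The 95% interval lay within 1.5-fold either way in 81 of 83 subunits, against 74.9% of all genes, and 79 of 83 differed by less than 1.2-fold. Complex I had 23 genes higher and 15 lower, with a median log2 fold change of 0.01, and complex III 2 higher and 7 lower, with a median of -0.07. In ATP synthase 4 genes were higher and 13 lower (median -0.05), and in complex IV 4 and 10 (median -0.07), with no call in either. Among subunits that did not pass, Cox7a1 had a log2 fold change of -0.59 ± 0.23 (limma adjusted p = 0.0508) and Atp5g1 of -0.23 ± 0.12 (adjusted p = 0.123). Under alternatives, Cox7a1 passed with median-ratio or quantile scaling, library weights or a pseudocount of 0.1 (limma adjusted p = 0.0233 to 0.0449). It also passed with a term for the first digit of the replicate number (0.0497). Without model 1_1, model 3_4 or control 1_5 it passed too (0.0239 to 0.0457). Atp5g1 passed under both rescalings, under library weights and without control 3_4 (0.013 to 0.0273). Without control 2_1, the library with a summed 516 FPKM of skeletal muscle markers, the value of Cox7a1 was -0.36 (adjusted p = 0.112).

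In bear bile-treated livers compared with control livers, 1 subunit rose, Ndufa9, and none fell. It is 1.2% of the 83, against 28.1% of all genes tested (24.4% higher and 3.7% lower). Beside the limma count of 0 falls, 1 subunit, Ndufa1, was lower at an unadjusted p under 0.05 (-0.20, adjusted p = 0.0733), and voom called 0. Ndufa9, an accessory subunit gene at the junction of the arms of complex I, was 101, 111, 94.9, 107 and 103 FPKM in BBBPH livers, 99.9, 82.1, 99.5, 92.3 and 95.5 FPKM in model livers, and 90.5, 93.3, 87.3, 89.6 and 75.7 FPKM in control livers. Every BBBPH library lay above every control library. Its log2 fold change was 0.24 ± 0.07 (limma adjusted p = 0.0234), and it was lost under 6 of 23 alternatives, among them both rescalings (0.07, adjusted p = 0.538, and 0.15, adjusted p = 0.0746) and the omission of control 3_4 (0.0548) or BBBPH 2_2 (0.0573).

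The median of the 83 was 0.05 in this comparison, or -0.08 relative to all genes. Leaving out 1 library moved the relative median to between -0.14 (without control 3_4) and -0.04 (without BBBPH 3_1), with -0.05 without control 1_1 and without control 1_5. The 1 higher and 0 lower calls became 0 and 2 without control 3_4, 0 and 1 without BBBPH 3_2 and 0 and 0 without BBBPH 2_2, while 3 were higher without BBBPH 3_1 and 2 without control 1_1, 2_1 or 2_2. Under median-ratio scaling 0 subunits were higher and 5 lower (Cox6c, Ndufa1, Ndufa13, Ndufv3 and Uqcr11), and under quantile scaling 0 and 4, with the split over all genes at 667 higher and 944 lower in place of 2337 and 354. Groups did not overlap in 2 subunits, both higher, Ndufa9 and the flavin-binding subunit gene Ndufv1 (0.17, adjusted p = 0.122), or 2.41% of 83, against 17.5% of all genes (15.3% higher and 2.22% lower). The 95% interval lay within 1.5-fold either way in 82 of 83 subunits, against 80.6% of all genes.

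**Figure D4:**
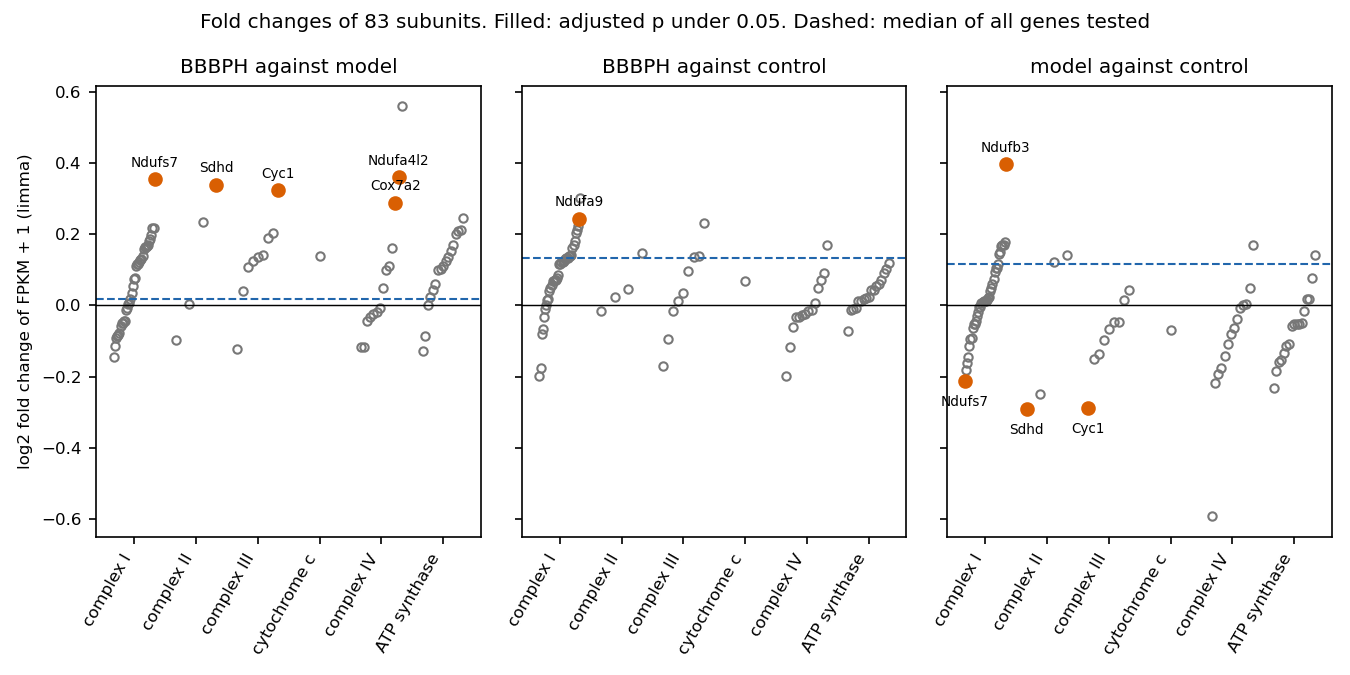
Log2 fold change of FPKM + 1 (vertical axis) of the 83 tested subunits by complex in the 3 comparisons, with filled points for an adjusted p under 0.05. The dashed line is the median of all genes tested; the median of the 83 lies below it in both comparisons with control (0.05 against 0.13, and -0.04 against 0.12) and above it for BBBPH against model (0.11 against 0.02).

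Cytochrome c showed no call in any comparison. Cycs was 27.8, 26.2, 24.9, 29.4 and 28.5 FPKM in BBBPH livers, 26.6, 22.4, 24.8, 26.6 and 23.5 FPKM in model livers, and 29.4, 29.9, 23.2, 25.6 and 22.7 FPKM in control livers, with overlap in all pairs. The log2 fold changes were 0.14 (95% interval -0.04 to 0.32) for BBBPH against model, 0.07 (-0.11 to 0.25) for BBBPH against control and -0.07 (-0.25 to 0.11) for model against control.

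The 3 genes of the c ring of ATP synthase encode the same mature subunit. Atp5g3 supplied most of their summed FPKM, with 60.8% ± 1.06 in BBBPH livers, 63.8% ± 1.92 in model livers and 61.5% ± 1.17 in control livers. Atp5g1 supplied 15.6% ± 0.953, 13.8% ± 1.37 and 15.9% ± 0.876, and Atp5g2 23.6% ± 0.398, 22.3% ± 0.822 and 22.6% ± 1.08 (SD, n = 5 each). Atp5g1 itself was 96.8, 111, 83.1, 115 and 101 FPKM in BBBPH livers, 85.1, 86.0, 92.9, 79.6 and 81.5 FPKM in model livers, and 113, 116, 93.4, 110 and 74.2 FPKM in control livers. It was lowest in control 3_4, and the other 4 control libraries lay above all model libraries. Atp5g2 was 146, 168, 138, 159 and 154 FPKM in BBBPH livers, 140, 123, 146, 132 and 146 FPKM in model livers, and 144, 162, 141, 151 and 117 FPKM in control livers. Atp5g3 was 384, 414, 366, 411 and 395 FPKM in BBBPH livers, 429, 330, 402, 405 and 406 FPKM in model livers, and 420, 443, 348, 417 and 325 FPKM in control livers. Model 1_4 and control 3_4 were the lowest of their groups in both Atp5g2 and Atp5g3. None of the 3 genes was called in any comparison.

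Complex IV has paired isoforms, of which one is typical of heart and skeletal muscle or of other tissues. In these livers the common form made up nearly all of each pair. Cox4i2 made up at most 0.0816% of its pair with Cox4i1, and Cox6b2, known from testis, at most 0.323% of its pair with Cox6b1. Cox4i2 was 0.108, 0.186, 0.0753, 0 and 0.174 FPKM in BBBPH livers, 0, 0.485, 0.0374, 0 and 0.114 FPKM in model livers, and 0.0381, 0.0375, 0.266, 0 and 0.350 FPKM in control livers, which at its length is at most 13 fragments. Cox6b2 was 0.475, 0.178, 1.63, 0.218 and 0.875 FPKM in BBBPH livers, 0.0863, 0.0447, 0.224, 0.136 and 0.364 FPKM in model livers, and 0.0457, 0.225, 0.228, 0.223 and 0.746 FPKM in control livers.

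The common forms overlapped between the groups in every pair, except Cox7a2 between BBBPH and model livers. Cox4i1 was 706, 809, 743, 771 and 689 FPKM in BBBPH livers, 721, 594, 724, 701 and 732 FPKM in model livers, and 678, 724, 661, 780 and 648 FPKM in control livers. Cox6b1 was 533, 520, 503, 579 and 593 FPKM in BBBPH livers, 581, 503, 570, 570 and 582 FPKM in model livers, and 565, 595, 504, 593 and 464 FPKM in control livers. Model 1_4 and control 3_4 were the lowest of their groups in both genes. Cox6a1, the subunit gene with the smallest coefficient of variation, was 380, 414, 364, 378 and 379 FPKM in BBBPH livers, 420, 348, 395, 395 and 403 FPKM in model livers, and 383, 379, 388, 430 and 373 FPKM in control livers. Cox8a was 238, 252, 222, 224 and 246 FPKM in BBBPH livers, 266, 216, 248, 256 and 216 FPKM in model livers, and 257, 271, 237, 257 and 213 FPKM in control livers. The 95% interval of BBBPH against model was -0.17 to 0.11 on the log2 scale for Cox6a1 and -0.19 to 0.15 for Cox8a.

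The muscle forms Cox6a2, Cox8b and Cox7a1 were all highest in 1 library, control 2_1. Cox6a2 was 0, 0, 0.0415, 0 and 0.0766 FPKM in BBBPH livers, 0.0397, 0.0411, 0, 0.0416 and 0.0418 FPKM in model livers, and 0, 0, 11.9, 0 and 0.171 FPKM in control livers. Cox8b was 0.0720, 0.149, 0.0754, 0 and 0 FPKM in BBBPH livers, 0.576, 0.0747, 0.150, 0.453 and 0.0759 FPKM in model livers, and 0.229, 0.450, 9.06, 0 and 0.0778 FPKM in control livers. In control 2_1 they made up 2.97% and 3.68% of their pairs with Cox6a1 and Cox8a. In that library 16 of 16 skeletal muscle markers were above 0, with a sum of 516 FPKM. The sum was 1.09 to 2.57 FPKM in the other 14, where 5 to 13 of the 16 were listed at 0. Among the 8 adipocyte markers, Adipoq (1.53 FPKM), Ucp1 (0.622 FPKM), Retn (0.472 FPKM) and Plin1 (0.433 FPKM) were also highest in control 2_1. Lep, Cfd, Cidea and Ppargc1a were not. The part of muscle or adipose RNA in these levels was not tested.

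Cox7a1 was the one muscle-type isoform with a level above 1 FPKM in nearly all livers. It was 2.61, 2.64, 3.15, 4.07 and 3.57 FPKM in BBBPH livers, 2.44, 0.884, 1.60, 2.08 and 2.52 FPKM in model livers, and 3.07, 1.95, 7.15, 2.99 and 2.64 FPKM in control livers. All BBBPH libraries lay above all model libraries, and control 2_1 lay above both. The log2 fold change was 0.56 ± 0.23 for BBBPH against model (limma adjusted p = 0.0838), which passed the threshold in a fit of these 2 groups alone (0.0327) and without model 1_4, BBBPH 2_2 and control 2_1 (0.46, adjusted p = 0.0296). Of the common forms in these pairs, Cox7a2 alone was called in a comparison.

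**Figure D5:**
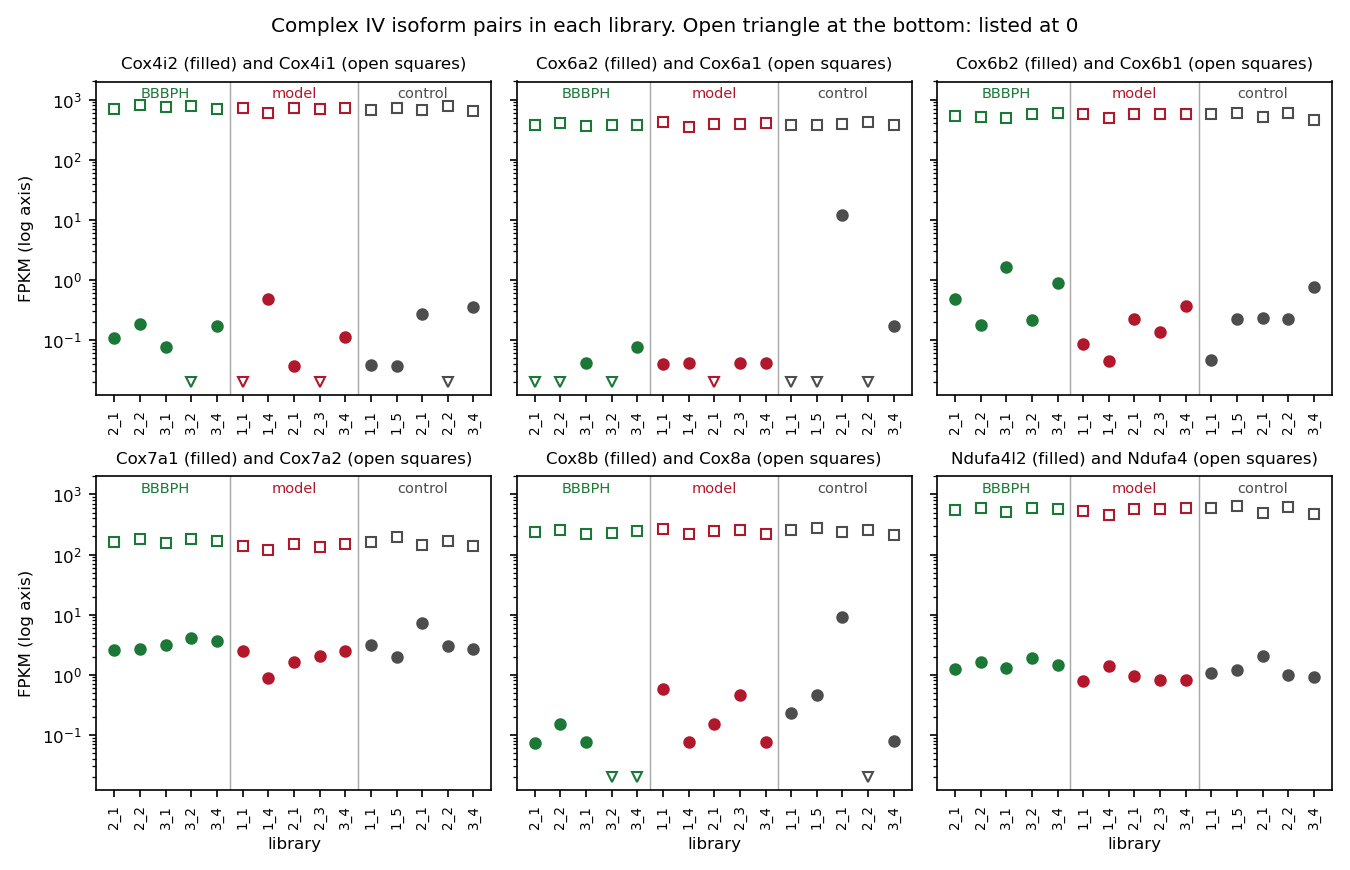
FPKM on a log axis of the 6 isoform or paralog pairs of complex IV in each library, with the minor form as filled circles, the common form as open squares and values listed at 0 as triangles at the bottom. Cox6a2 (11.9 FPKM) and Cox8b (9.06 FPKM) stand out in control 2_1, while Cox7a1 and Ndufa4l2 lie near 1 to 7 FPKM in nearly all libraries.

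Other genes of the pathway were read in lists of assembly, regulation, electron supply and import. The shares of all genes tested to set beside these counts are 14.2% higher and 12.2% lower for BBBPH against model, 29.9% and 8.64% for model against control, and 24.4% and 3.7% for BBBPH against control. Of 46 assembly factor genes tested, 3 rose and 2 fell in BBBPH against model livers, 16 rose and 2 fell in model against control livers, and 9 rose and none fell in BBBPH against control livers. Rises were thus 6.52%, 34.8% and 19.6% of the list. Their median log2 fold changes were -0.03, 0.17 and 0.14, against 0.02, 0.12 and 0.13 over all genes. Cox19, needed for complex IV assembly, averaged 32.6 ± 3.76 FPKM in BBBPH livers, 46.8 ± 1.54 in model livers and 30.0 ± 1.85 in control livers, a log2 fold change of -0.52 for BBBPH against model (limma adjusted p = 0.000198) and 0.63 for model against control (2.83e-05). Tmem186, a complex I assembly factor, had the smallest adjusted p for BBBPH against control (0.57, 9.06e-05). Of 78 mitochondrial ribosomal protein genes, 3 rose and 3 fell against model, 15 rose and 2 fell in model against control, and 12 rose and none fell in BBBPH against control. The rises were 3.85%, 19.2% and 15.4% of that list, each a smaller share than over all genes.

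Among 13 tested regulators of mitochondrial biogenesis and mitochondrial DNA expression, 5 rose and none fell in BBBPH against model livers, 2 rose and 2 fell in model against control livers, and 5 rose and none fell in BBBPH against control livers. The 5 are 38.5% of the list, against 14.2% of all genes higher for BBBPH against model and 24.4% for BBBPH against control, and the 2 are 15.4%, against 29.9% higher and 8.64% lower for model against control. Esrra, a nuclear receptor known to activate genes of oxidative metabolism, was 9.35, 13.9, 13.7, 14.7 and 14.4 FPKM in BBBPH livers, 6.26, 7.89, 9.15, 9.23 and 7.82 FPKM in model livers, and 11.6, 12.2, 14.4, 14.1 and 13.8 FPKM in control livers. Model libraries lay below all others, and the log2 fold change of model against control was -0.66 ± 0.12 (limma adjusted p = 0.000624). Lrpprc, which stabilises mitochondrial messenger RNAs, averaged 35.8 ± 2.95 FPKM in BBBPH livers and 25.6 ± 1.56 in model livers (0.47, adjusted p = 0.000222). Polrmt, the mitochondrial RNA polymerase, averaged 4.71 ± 0.462 FPKM in BBBPH livers and 3.40 ± 0.419 in control livers (0.38, adjusted p = 0.00335).

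Of 18 genes of the tricarboxylic acid cycle and pyruvate dehydrogenase, none rose and 2 fell in BBBPH against model livers, where the median was 0.14, 5 rose and 3 fell in model against control livers, and 3 rose and none fell in BBBPH against control livers. The 2 falls against model (11.1%) and the 5 rises in model livers (27.8%) were close to the shares of all genes, 12.2% and 29.9%. Suclg2, the GTP-forming beta subunit of succinyl-CoA ligase, averaged 74.8 ± 6.32 FPKM in BBBPH livers, 105 ± 6.07 in model livers and 65.8 ± 8.57 in control livers, a log2 fold change of -0.48 for BBBPH against model (limma adjusted p = 0.00123) and 0.67 for model against control (6.74e-05). Of 11 coenzyme Q genes, 2 fell in BBBPH against model livers, 6 rose and 1 fell in model against control livers, and 4 rose and 1 fell in BBBPH against control livers. The rises were 54.5% of that list for model against control and 36.4% for BBBPH against control, where 29.9% and 24.4% of all genes rose. Pdss2, which makes the tail of coenzyme Q, averaged 1.27 ± 0.156, 1.68 ± 0.0581 and 1.03 ± 0.101 FPKM in the BBBPH, model and control groups, and Coq10b, a coenzyme Q-binding protein gene, was lower in BBBPH than in control livers (-0.89, adjusted p = 0.00879).

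Among 8 genes for other routes of electrons to ubiquinone and alternative subunits, 1 rose and 1 fell in BBBPH against model livers, 1 rose in model against control livers and 2 rose in BBBPH against control livers, or 12.5%, 12.5% and 25.0% higher, against 14.2%, 29.9% and 24.4% of all genes. Etfdh, which takes electrons from fatty acid oxidation, rose in model against control livers (0.60, limma adjusted p = 5.08e-05), at 219 ± 16.4 FPKM against 144 ± 11.8. Gpd2, the mitochondrial glycerol-3-phosphate dehydrogenase, was 11.0, 12.8, 15.3, 16.2 and 12.9 FPKM in BBBPH livers, 8.54, 8.19, 8.12, 11.2 and 5.94 FPKM in model livers, and 8.27, 8.45, 6.52, 7.35 and 8.15 FPKM in control livers. The lowest BBBPH library lay just under the highest model library, and all BBBPH libraries lay above the control libraries. It rose in BBBPH livers against model (0.65, limma adjusted p = 0.00179) and against control (0.74, adjusted p = 0.00129). Of 24 protein import genes, 4 rose and none fell in BBBPH against model livers, 1 fell in model against control livers and 2 rose in BBBPH against control livers. The 4 are 16.7%, close to the 14.2% of all genes, and the 2 are 8.33%, against 24.4%. Timm9, an import chaperone of the intermembrane space, averaged 19.5 ± 1.60 FPKM in BBBPH livers, 14.8 ± 1.43 in model livers and 21.3 ± 3.69 in control livers, a log2 fold change of 0.38 for BBBPH against model (adjusted p = 0.0139) and -0.49 for model against control (0.00191). Of 11 carrier and uncoupling genes, 2 rose in BBBPH against model livers, 2 rose and 1 fell in model against control livers, and 1 rose in BBBPH against control livers. These rises are 18.2%, 18.2% and 9.09% of the list, against 14.2%, 29.9% and 24.4% of all genes. The citrate carrier gene Slc25a1 was the first of them against model (0.40, limma adjusted p = 0.00270), and Ucp2, a member of the uncoupling protein family, rose against control in both BBBPH livers (0.42, adjusted p = 0.0315) and model livers (0.55, adjusted p = 0.00546).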

How the data were processed

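Per the labels' protocols, TRIzol was used to extract total RNA from liver, and the VAHTS Universal V6 kit to build the libraries. The values are FPKM as the authors deposited them, 1 column per library, unpooled. Tools named in the submitters' processing notes are fastp, HISAT2, HTSeq and DESeq2, with mm10 as the build; no version or role is attached to them. Annotation, strand setting and filters are not given in the sources used here. The table of the series and the 15 files of single libraries agreed in every value.

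Members, lists and tests were chosen with earlier results of these data known. The test was limma 3.58.1 (R 4.3.3) on log2(FPKM + 1) of the 9575 genes that averaged 1 FPKM or more, with 3 group means (12 residual degrees of freedom), eBayes with trend=TRUE, 2-sided p-values and Benjamini-Hochberg adjustment over all genes in each comparison, called at an adjusted p under 0.05. Errors are SE of fold changes and SD of levels (n = 5), intervals are 95%, and fold changes of FPKM + 1 understate those of low genes. A difference in level between genes is in FPKM, which is per length. The procedure was tested on simulated data.

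Depth was recovered from the deposited FPKM, since the values of 1 gene are whole multiples of what 1 fragment is worth in each library. It came to 36523094 to 39624160 fragments in BBBPH, 36294653 to 38257777 in model and 35395712 to 37081160 in control libraries. The whole-number tolerance was 0.02. Recovered gene lengths equalled a GENCODE M21 length in 350 of 10480 genes compared, so another annotation may have been used. GENCODE M21 gave positions for 83 of the 88 members.

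Values in every library are given for the called members with the smallest adjusted p or largest change per complex, the isoform pairs of complex IV, the c ring genes, Cycs, Cyc1 and complex II; the others by counts and ranges. Genes named from the other pathway lists are those with the smallest adjusted p of their list in a comparison. Such genes are not named for every list and comparison. Alternatives were median-ratio scaling, quantile scaling, TPM, filters at 0 and at 5 FPKM, a pseudocount of 0.1, robust eBayes, library weights, 2-group fits, the replicate number as a block, its first digit as a term, and each library left out. Added after seeing the data were 3 libraries left out together (model 1_4, BBBPH 2_2 and control 2_1, which stand apart in acute-phase, pancreatic and muscle genes) and voom on recovered counts. Python 3.11.15 was used for the rest.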

Additional observations from a re-analysis of the deposited data

Results flagged for a closer look

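Among 87 groups of 5 libraries examined, for 24 named members and the sums per complex, 19 held an outlying library. Its gap to the nearest other library was over 0.71 of the range of the group. For independent normal values this happens in about 1 group in 20. The groups here reuse the same 15 libraries and the sums hold the named genes, so 19 cannot be set against that rate. Of the 19, 10 were model library 1_4. Its sums were 3353 FPKM for complex I (other model libraries 4036 to 4130), 1519 FPKM for complex III (1911 to 1962), 3398 FPKM for complex IV (4098 to 4242) and 3736 FPKM for ATP synthase (4510 to 4672). It was also low in Atp5g3 (329.7 FPKM, others 402 to 429), Cox4i1 (594.0 FPKM, others 701 to 732), Cox6b1 (503.1 FPKM, others 570 to 582) and Sdhc (132.8 FPKM, others 153 to 160), and high in Ndufa4l2 (1.389 FPKM, others 0.794 to 0.944) and Cox4i2 (0.4849 FPKM, others 0 to 0.114).

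Control library 3_4 was low in Sdha (182.1 FPKM, others 207 to 213) and Sdhb (146.1 FPKM, others 203 to 217) and high in Cox6b2 (0.7459 FPKM, others 0.0457 to 0.228). Control library 2_1 was high in Cox6a2 (11.87 FPKM, others 0 to 0.171), Cox8b (9.058 FPKM, others 0 to 0.450), Cox7a1 (7.148 FPKM, others 1.95 to 3.07) and Ndufa4l2 (2.015 FPKM, others 0.932 to 1.18). Control library 2_2 was high in Cox6a1 (429.6 FPKM, others 373 to 388). Cox6a2 was listed at 0 FPKM in model library 2_1, and at 0.0397 to 0.0418 FPKM in the other model libraries. That is 0 fragments against 1 fragment in each of the others.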

How the results depend on the processing

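For model against control, the count of members higher was 1 and of members lower 3. These became 0 and 22 under median-ratio scaling; 16 were lower under quantile scaling, 6 under library weights and 0 with the 3 libraries out. For BBBPH against model, 5 were higher, and 3 without a filter, 10 under quantile scaling and 3 with the 3 libraries out. For BBBPH against control, 1 was higher and 0 lower; 0 were higher and 5 lower under median-ratio scaling, 0 and 4 under quantile scaling, 4 and 2 under library weights, and 3 were higher with a term for the first digit of the replicate number. The cause of these shifts was not tested. Leaving out 1 library gave 0 to 3 higher and 2 to 9 lower for model against control, 2 to 5 higher and 0 lower for BBBPH against model, and 0 to 3 higher and 0 to 2 lower for BBBPH against control.

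The relative median kept its sign under all alternatives for model against control (-0.20 to -0.07) and for BBBPH against model (0.01 to 0.13), but for BBBPH against control it was -0.08, and 0.004 without a filter. The numbers in the titles are not explained and were not used as pairs in the main fit. The 8 same-numbered pairs had residual correlations of -0.33 to 0.02, and 0 of 10 libraries fitted best with its own number. Low correlations do not show that the libraries were unpaired. With the replicate block the counts were 1 higher and 3 lower for model against control, 5 and 0 for BBBPH against model, and 1 and 0 for BBBPH against control, as without it. Of 1374 values of single genes under alternatives, 1297 kept direction and side of the threshold, 49 lost a call, 28 gained one and 0 changed sign past it. Depth limits the lowest members: no value of Cox4i2 rested on over 13 fragments, and none of Ndufb4c on over 12.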
